A study of Mus musculus with 11 samples.

Results

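Myo1e, Ptchd1, Mtss1 and Cd83 are 4 of the 31053 genes in the count matrices of single nuclei from the cortex of mice with and without the P301S tau transgene. They were chosen by their levels in microglia-like nuclei of P301S mice against non-transgenic mice, where Myo1e, Ptchd1 and Cd83 were higher and Mtss1 was lower. Because that contrast selected the genes, its values are given as a description with no test. The 4 genes are tested only between active IKKβ and knockout mice and in other types of nuclei.

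Microglia are the resident macrophages of the brain. They survey the tissue with motile processes whose membranes are shaped by actin, take up debris and aggregated protein, and change their expression in tauopathy, often with loss of homeostatic genes and gain of so-called disease-associated (DAM) genes. Myo1e encodes a long-tailed class I myosin, a single-headed motor that links actin to membranes in phagocytosis and endocytosis. Mtss1 encodes an I-BAR protein, which binds actin and curves membranes into protrusions. Ptchd1, on the X chromosome, encodes a membrane protein of the patched family that is best known from neurons and from intellectual disability and autism. Cd83 encodes an immunoglobulin-family surface protein of activated antigen-presenting cells that stabilises MHC class II and CD86, and its gene is a known target of NF-κB, the transcription factor that the kinase IKKβ activates.

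The P301S mice carry a human tau transgene with that mutation (the PS19 line), expressed mainly in neurons from the prion protein promoter. The 11 mice were all labelled female, although the study's methods state that males alone were taken for RNA sequencing; the label was followed and the difference is unresolved. The 4 non-transgenic mice (9.8 to 10.85 months old) and 3 P301S mice (9.15 to 10.75 months) carried no Cre. The 2 knockout P301S mice (8.39 to 9.15 months; Ikbkb-/-) carried 1 Cx3cr1 CreERT2 allele with floxed Ikbkb, so that the gene for IKKβ was deleted in Cx3cr1-expressing cells. The 2 active IKKβ P301S mice (9.8 to 10.85 months; IkbkbCA) carried the same Cre allele and a conditional, constitutively active IKKβ. According to the methods of the study, tamoxifen was given to the Cre-negative controls as well. The Cre allele occupies 1 copy of Cx3cr1, and Cx3cr1 is also used by brain border macrophages and blood monocytes. The mice came from a floxed line (6 mice) and an active IKKβ line (5 mice), as the titles and the study's methods show: non-transgenic replicates 1 and 2, P301S replicates 1 and 2 and both knockouts were of the floxed line, and the others of the active IKKβ line. Line and group cannot be told apart between the knockout and active IKKβ mice themselves. Nor can age be separated from group there, since every knockout mouse was younger than every active IKKβ mouse.

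Each library had between 7500 and 12315 barcodes, with 72007219 to 93205362 UMIs in total, and 103065 nuclei were used after filters. Of 112502 distinct barcode sequences, 1599 occurred in more than 1 library, at most 45 in any pair. Although the tissue was labelled cortex, 9840 nuclei carried markers of striatal projection neurons. The microglia-like cluster held 4370 nuclei (186 to 718 per mouse, 2.51% to 7.23% of a mouse's nuclei), with all 10 microglial markers raised and Runx1, Inpp5d, Ly86 and Csf1r among its leading genes. Ikbkb itself was at 125 to 155 CPM in non-transgenic, 134 to 147 in P301S, 110 to 115 in knockout and 150 to 161 in active IKKβ mice; gene counts do not show whether the reads came from the deleted part, so they do not check the deletion.

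Levels of single genes are given as CPM, the UMIs of a gene summed over the microglia-like nuclei of a mouse, per 1e+06 UMIs. The total was the UMIs of the genes tested, rescaled between mice by edgeR's TMM factors. All UMIs of those nuclei came to 380183 to 1629348 per mouse. Where a gene or type had no fit, the total was all UMIs, rescaled in the same way. Ikbkb and the sums of markers are instead per 1e+06 of all UMIs with no rescaling. In bulk sums of this kind, fewer positive nuclei and less RNA per nucleus cannot be told apart, so both are given further on. In these units, the P301S mice did not overlap the non-transgenic mice for any of the 4 genes. Over all 8974 genes tested in microglia-like nuclei, 6.17% did not overlap between these groups, and since the genes were chosen from this contrast, nothing is read from the difference.

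Myo1e (ENSMUSG00000032220; chromosome 9, 70207350 to 70399766, plus strand, GENCODE M21 on GRCm38, the build of mm10) was at 100, 94.3, 50.6 and 48.8 CPM in the 4 non-transgenic mice. The 3 P301S mice had 152, 228 and 378 CPM, every one above every non-transgenic mouse. The group means were 73.4 ± 27.5 CPM (SD, n = 4) and 252 ± 115 CPM (n = 3), and the fitted log2 difference was 1.89 ± 0.31 (SE). P301S replicate 3 was the highest of all 11 mice.

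The 250 bases before the RefSeq start of Myo1e are shown because it had the largest P301S difference of the 4 genes, at chr9:70207100-70207349 on the plus strand of GRCm38. Capitals mark CCAAT on the minus strand, read here as its complement, beginning at position -57 from the start.
Myo1e: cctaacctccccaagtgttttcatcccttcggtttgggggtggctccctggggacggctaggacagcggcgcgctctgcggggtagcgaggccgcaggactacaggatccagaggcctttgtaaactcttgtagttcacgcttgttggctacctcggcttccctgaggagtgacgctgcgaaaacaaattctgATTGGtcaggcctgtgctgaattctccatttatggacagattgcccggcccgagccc
CCAAT occurs in 33.8% of 32851 windows of this kind, searched on both strands. The NF-κB consensus (in 7.3% of windows), the PU.1 core GAGGAA (23.3%), TGANTCA of AP-1 (6.7%), the E-box CACGTG (6.0%) and TATAAA (12.4%) had no match here, which says only that these letters are not in this window. The RefSeq window of Ptchd1 was searched in the same way and held 2 matches to the NF-κB consensus and 0 to the other motifs. It is not printed because it lies inside the gene as the annotation used here draws it. Mtss1 and Cd83 had no window in the set used, so neither was searched. A match is a description and not a site. The printed sequence is RefSeq's.

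Ptchd1 (ENSMUSG00000041552; chromosome X, 155573455 to 155623814, minus strand) was at 40.6, 54.7, 30.8 and 26.6 CPM in non-transgenic mice and at 77.2, 109 and 107 CPM in P301S mice. All 3 P301S mice lay above all 4 controls, and unlike Myo1e, replicates 2 and 3 had nearly equal levels. The means were 38.2 ± 12.5 and 97.6 ± 17.7 CPM, with a log2 difference of 1.41 ± 0.25.

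Mtss1 (ENSMUSG00000022353; chromosome 15, 58941234 to 59082005, minus strand) was the member that was lower. Its level was 276, 292, 244 and 262 CPM in non-transgenic mice and 171, 181 and 122 CPM in P301S mice. The means were 268 ± 20.5 and 158 ± 31.5 CPM, and the log2 difference was -0.81 ± 0.17. P301S replicate 3, highest for Myo1e, was the lowest of all mice for Mtss1.

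Cd83 (ENSMUSG00000015396; chromosome 13, 43784775 to 43803132, plus strand) was at 35.2, 28.3, 37.4 and 42.9 CPM in non-transgenic mice and at 44.1, 70.4 and 169 CPM in P301S mice. The P301S mice spanned a wide range, from a value just above the highest control to the highest of all 11 mice. The means were 35.9 ± 6.04 and 94.6 ± 66.1 CPM. The log2 difference was 1.56 ± 0.34, and it rested largely on replicate 3, without which it was 0.72.

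**Figure D1:**
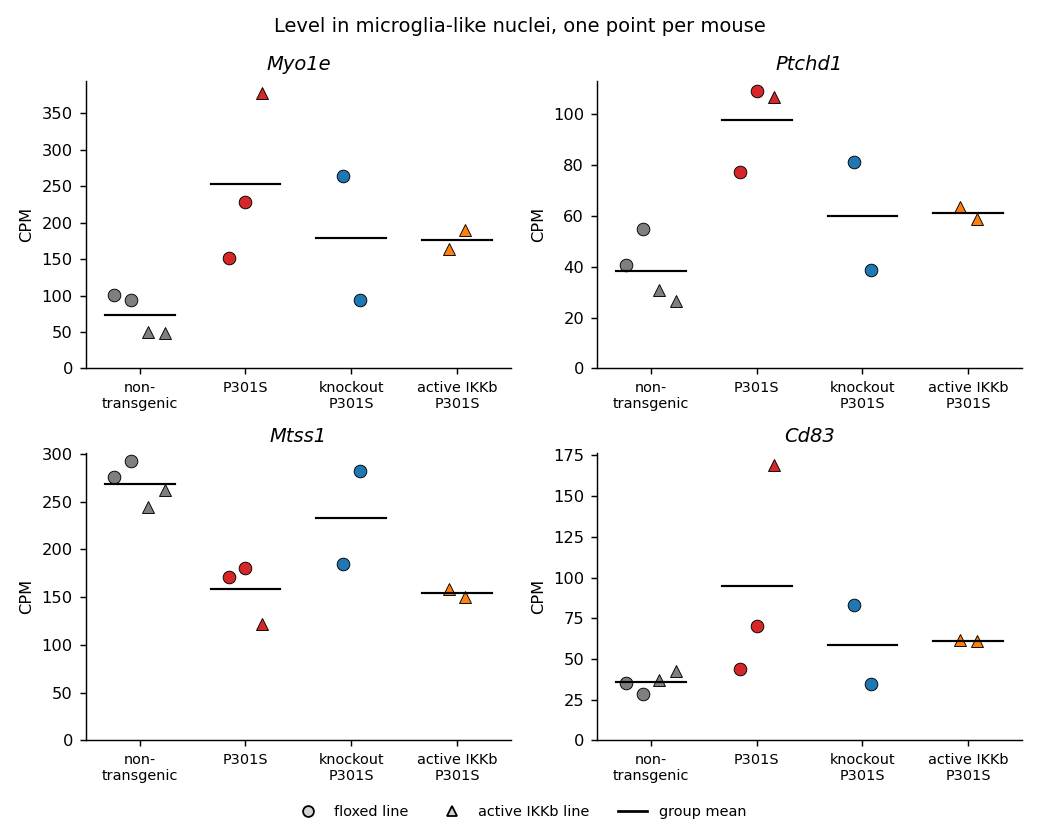
CPM of each gene in microglia-like nuclei (y axis, linear from 0) in the 4 groups (x axis); each point is 1 mouse, circles are the floxed line, triangles the active IKKβ line, and bars are group means. P301S mice lie above the non-transgenic mice for Myo1e, Ptchd1 and Cd83 and below them for Mtss1, P301S replicate 3 (the triangle) is the highest for Myo1e and Cd83, and the 2 knockout mice lie far apart in every panel.

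With edgeR's quasi-likelihood test across all genes and the thresholds used throughout (Benjamini-Hochberg adjusted p under 0.05, absolute log2 difference over 0.1), 0.078% of all genes were called in this contrast (7 of 8974, all higher). The contrast chose the 4 genes, so no call is read for them. Without P301S replicate 3 the log2 differences were 1.45 for Myo1e, 1.35 for Ptchd1 and -0.60 for Mtss1.

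Since no P301S mouse overlapped the non-transgenic mice for these genes, the direction within each breeding line was fixed in advance. Only the sizes are given. In the floxed line, with 2 mice a group, P301S means were 1.95 times the non-transgenic mean for Myo1e and for Ptchd1, 1.81 times for Cd83 and 0.62 times for Mtss1. In the active IKKβ line the single P301S mouse was at 7.61, 3.72, 4.22 and 0.483 times the mean of its 2 controls for Myo1e, Ptchd1, Cd83 and Mtss1. That mouse is replicate 3, so line and mouse cannot be told apart here. The controls also differed between the lines, so the ratios rest on unlike controls. Non-transgenic means in the floxed and active IKKβ lines were 97.15 and 49.7 CPM for Myo1e and 47.6 and 28.7 for Ptchd1. They were 31.7 and 40.1 CPM for Cd83 and 284 and 253 for Mtss1.

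The level of a gene can differ because more nuclei hold its RNA or because each such nucleus holds more. Shares of nuclei with a UMI were compared after thinning every nucleus to 1000 UMIs, which left out 23 of 4370 nuclei. A Myo1e UMI was held by 3.53% to 7.77% of microglia-like nuclei in the non-transgenic mice and by 9.68%, 13.04% and 19.8% in P301S replicates 1, 2 and 3. Ptchd1 was held by 2.35% to 6.01% against 7.66%, 9.01% and 7.53%, and Mtss1 by 20.9% to 22.9% against 14.1%, 16.8% and 11.3%. For these 3 genes the groups did not overlap in this measure, which uses the nuclei and the contrast that chose them. The proportion of all genes without overlap was not computed for it, so nothing is read from this.

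Cd83 differed from them: P301S replicate 1, at 2.42% of nuclei, lay below all 4 non-transgenic mice (2.69% to 4.24%), while replicates 2 and 3 were at 6.21% and 12.4%. The exact (Clopper-Pearson) 95% interval of replicate 1 was 0.893% to 5.19%, which spans the controls, and such intervals cover counting error only. Without thinning, the shares of all genes were higher (for Myo1e, a mean of 9.93% in non-transgenic and 21.4% in P301S mice).

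Free RNA in droplets gives UMIs to nuclei that do not express a gene, so shares in other types were set beside these. At the same thinned depth a Cd83 UMI was in 0.106% of astrocyte-like and 0.11% of oligodendrocyte-like nuclei (median depths before thinning of 4292 and 2381 UMIs, against 2074 in microglia-like nuclei), and a Ptchd1 UMI was in 0.867% of astrocyte-like nuclei. In every mouse the microglia-like share was above these values. The unnamed cluster of low-UMI nuclei led by mitochondrial genes (median 953 UMIs) held Ptchd1 in 6.05% of its thinned nuclei, against a pooled 5.27% of microglia-like nuclei, and the part of free RNA in the Ptchd1 share was not tested. Excitatory neuron-like nuclei held it in 5.82%. The unnamed cluster held Cd83 in 0.60%, Myo1e in 3.325% and Mtss1 in 6.35% of its thinned nuclei. Endothelial-like nuclei held Cd83 in 1.67%, above the lowest microglia-like mouse, knockout replicate 2, at 1.62%. Astrocyte-like and oligodendrocyte-like nuclei held Myo1e in 10.3% and 18.0% and Mtss1 in 6.75% and 16.3%. The part of free RNA in the shares of these genes was not tested either. Summed over 13 neuronal markers, microglia-like nuclei had 6878 to 8812 CPM in non-transgenic and 5998 to 7491 CPM in P301S mice.

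**Figure D2:**
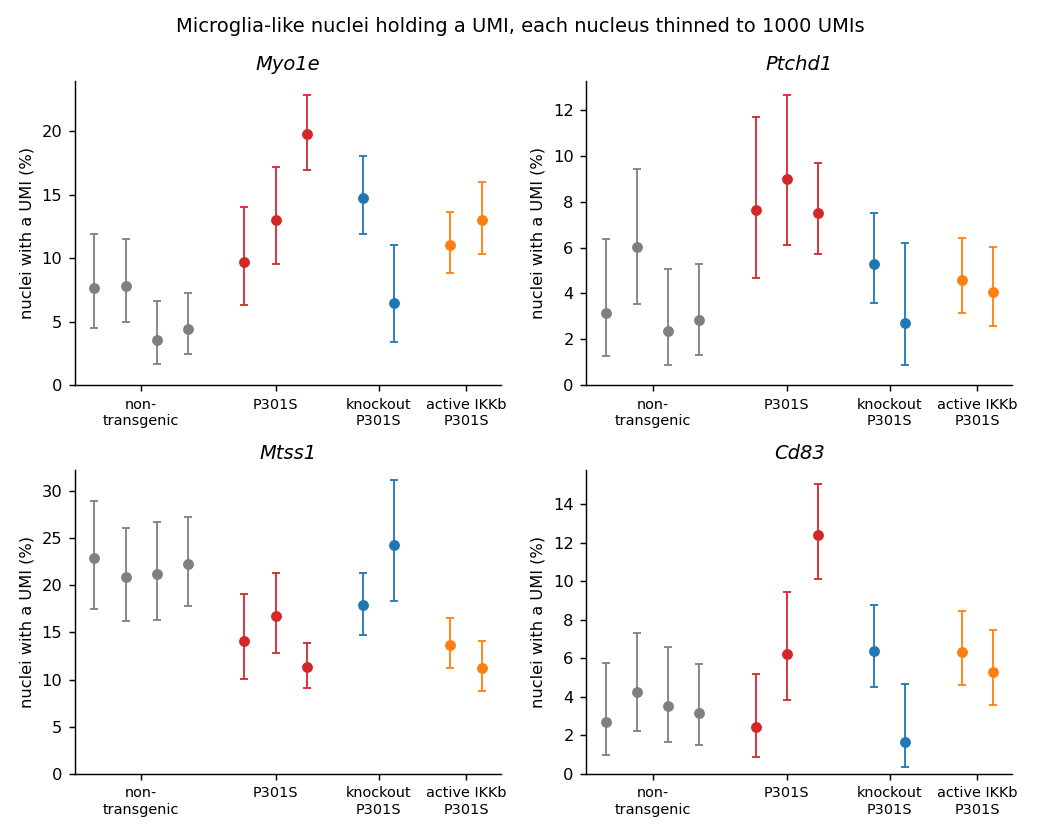
Percent of microglia-like nuclei with at least 1 UMI of each gene after thinning to 1000 UMIs (y axis), for each mouse in replicate order within its group (x axis), with exact 95% binomial intervals as bars. P301S mice lie above the non-transgenic mice for Myo1e and Ptchd1 and below them for Mtss1, while for Cd83 P301S replicate 1, at 2.42%, lies below them.

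Counted over the pooled nuclei of each group and without thinning, nuclei with 3 or more Myo1e UMIs made up 0.553% of non-transgenic nuclei (6 of 1085) and 6.3% of P301S nuclei (82 of 1301), 5.03% of knockout and 3.84% of active IKKβ nuclei. These shares were not compared over mice: P301S replicate 3 held 560 of the 751 Myo1e UMIs of its group, and knockout replicate 1 held 313 of 357. The most in 1 nucleus was 5 in non-transgenic mice and 40 in P301S replicate 3. The nuclei with Myo1e held 1.34 UMIs of it on average in non-transgenic mice and 1.41, 2.06 and 2.71 in P301S replicates 1, 2 and 3. The median depth of microglia-like nuclei was 1698 to 2142 UMIs in non-transgenic, 1445 to 2040 in P301S, 2130 to 2469 in knockout and 2334 to 2490 in active IKKβ mice. Leaving out the 12 nuclei with 10 or more UMIs of any member moved the Myo1e log2 difference from 1.89 to 1.65. Ptchd1, Cd83 and Mtss1 reached at most 7, 9 and 6 UMIs in 1 nucleus.

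Next, the 2 groups with altered IKKβ were placed on the same scale. Their comparisons with P301S mice reuse the mice that chose the genes and share them, so only values are given. Knockout replicate 1 and replicate 2 stood apart: Myo1e was at 265 and 94.5 CPM, Ptchd1 at 81.2 and 38.7, Cd83 at 82.9 and 34.4, and Mtss1 at 184 and 281. Replicate 2, with 186 microglia-like nuclei, lay within the non-transgenic range for all 4 genes. Replicate 1, with 549 nuclei, lay with the P301S mice for Myo1e, Ptchd1 and Cd83 and just above them for Mtss1.

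The active IKKβ mice were close to each other. Replicates 1 and 2 had 163 and 190 CPM of Myo1e, 63.6 and 58.7 of Ptchd1, 61.8 and 60.8 of Cd83, and 158 and 150 of Mtss1. Both mice lay above the non-transgenic mice for Myo1e, Ptchd1 and Cd83. They lay within the P301S range for Myo1e, Cd83 and Mtss1 and below every P301S mouse for Ptchd1. The non-transgenic and P301S mice took part in the choice of genes. The share of all genes without overlap between active IKKβ mice and either of these groups was not computed, so nothing is read from these positions. Against P301S mice the log2 differences were -0.59 ± 0.31 for Myo1e, -0.71 ± 0.24 for Ptchd1, -0.81 ± 0.33 for Cd83 and 0.0070 ± 0.19 for Mtss1. The knockout differences were -0.47 ± 0.32, -0.62 ± 0.26, -0.73 ± 0.36 and 0.56 ± 0.19 in the same order. These values depended on single mice. With 1 mouse left out, the active IKKβ difference of Cd83 reached 0.025 and that of Myo1e -0.15, both without P301S replicate 3, and with breeding line as a covariate Cd83 was at -1.28. The knockout differences ran from -1.49 to -0.0058 for Myo1e, from -1.37 to -0.30 for Ptchd1, from -1.64 to 0.11 for Cd83 and from 0.27 to 0.87 for Mtss1, and that of Cd83 was 0.021 with age as a covariate.

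The direct comparison of active IKKβ with knockout P301S mice, 2 against 2, did not enter the choice of genes. None (0 of 4) passed edgeR's test, where 1.94% of 8974 genes did (174, of which 120 were higher and 54 lower), and DESeq2 also called 0 of 4. The smallest p among them was that of Mtss1, lower by a log2 difference of 0.56 in active IKKβ mice (-0.56 ± 0.20, 95% interval -0.97 to -0.14), with an edgeR adjusted p of 0.196 over all genes. It was -0.88 without knockout replicate 1, -0.26 without knockout replicate 2 and -0.24 with breeding line as a covariate. Both active IKKβ mice lay below both knockouts for Mtss1, and 45.7% of all genes did not overlap between these 4 mice.

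For the other 3 genes the active IKKβ mice lay between the 2 knockouts. The differences were -0.12 ± 0.34 for Myo1e (interval -0.83 to 0.59, edgeR adjusted p = 0.924), -0.088 ± 0.28 for Ptchd1 (-0.66 to 0.48, edgeR adjusted p = 0.932) and -0.075 ± 0.38 for Cd83 (-0.87 to 0.72, edgeR adjusted p = 0.96). They depend on knockout replicate 1: without it the log2 differences were 0.89, 0.65 and 0.82.

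**Figure D3:**
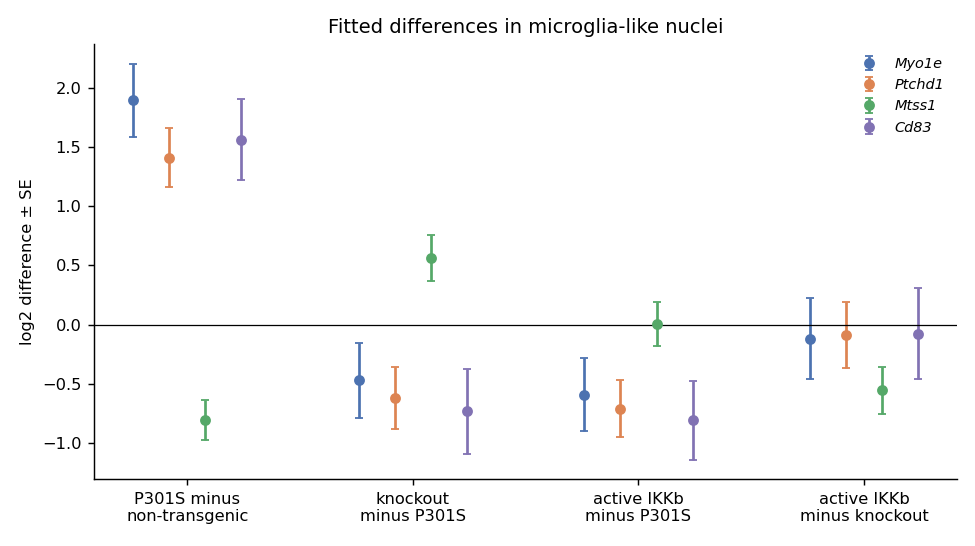
Fitted log2 differences in microglia-like nuclei (y axis; points, with SE as bars) for 4 contrasts of groups (x axis) and 4 genes (colours). The first contrast chose the genes and the next 2 reuse its P301S mice; in the last, active IKKβ minus knockout, Myo1e, Ptchd1 and Cd83 lie near 0 and Mtss1 at -0.56.

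Other cells could lie in the microglia-like cluster. The 8 perivascular macrophage markers summed to 236 to 721 CPM in non-transgenic, 282 to 579 in P301S, 435 to 567 in knockout and 223 to 381 in active IKKβ mice. Stab1 had the most UMIs of them in each group, at 555, 429, 450 and 514 in that order. Lyve1 had 3, 3, 4 and 0 UMIs, Cbr2 had 5, 1, 2 and 1, and Pf4 had 0, 1, 0 and 0. The 10 lymphocyte or dendritic cell markers were at 18.1 to 51.0, 13.2 to 28.2, 20.9 to 31.1 and 78.6 to 107 CPM; Cd3e, Cd3g and Xcr1 had 0 UMIs in every mouse. Zbtb46, a transcription factor of dendritic cells, had 249 UMIs in active IKKβ mice and 43, 36 and 28 in non-transgenic, P301S and knockout mice. In the same order, Flt3 had 27 UMIs against 19, 20 and 18, Clec9a 6 against 2, 1 and 1, and Ccr7 1 against 0, 0 and 0. These are sums over groups of unlike size (1249, 1085, 1301 and 735 nuclei). Whether dendritic cells were present was not tested. Leaving out the nuclei that held any such UMI removed 1697 of the 4370 (38.8%); in the rest, the log2 differences of P301S mice were 1.96 for Myo1e, 1.59 for Ptchd1, -0.82 for Mtss1 and 1.61 for Cd83.

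Among the 10 types for which CPM was computed, Cd83 had its highest mean level in microglia-like nuclei, and the other 3 genes were as high or higher elsewhere. Cd83 was at 60.7 CPM over the 11 mice (28.3 to 169) in microglia-like nuclei, at 15.5 (0 to 41.3, from 19 UMIs) in endothelial-like nuclei and at 7.11 (3.32 to 11.2) in OPC-like nuclei, with all remaining types at a mean of 3.8 CPM or less. Apart from endothelial-like nuclei, no type reached the lowest microglia-like mouse.

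Ptchd1 was at a mean of 68.7 CPM in striatal projection neuron-like, 62.5 in microglia-like and 60.5 in excitatory neuron-like nuclei, which overlapped in their ranges, followed by inhibitory neuron-like nuclei at 36.6. It was lowest in astrocyte-like nuclei, at 9.98 CPM. The microglial range, 26.6 to 109 CPM, was the widest of these.

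Among these types Myo1e was highest in endothelial-like nuclei at 373 CPM (223 to 493) and in oligodendrocyte-like nuclei at 240 (185 to 298), followed by microglia-like nuclei at 160 (48.8 to 378) and astrocyte-like nuclei at 106 (86.5 to 140). It was at 2.27 CPM in striatal projection neuron-like nuclei. The 213 nuclei of an ependymal or choroid-like cluster, for which no CPM was computed, held a Myo1e UMI in 29.9% after thinning, against 27.1% of endothelial-like nuclei. Mtss1 was at 360 CPM in endothelial-like, 290 in fibroblast-like and 239 in OPC-like nuclei, and inhibitory neuron-like (216), microglia-like (211) and oligodendrocyte-like (202) nuclei followed with ranges that overlapped. It was lowest in excitatory neuron-like nuclei, at 32.7 CPM.

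**Figure D4:**
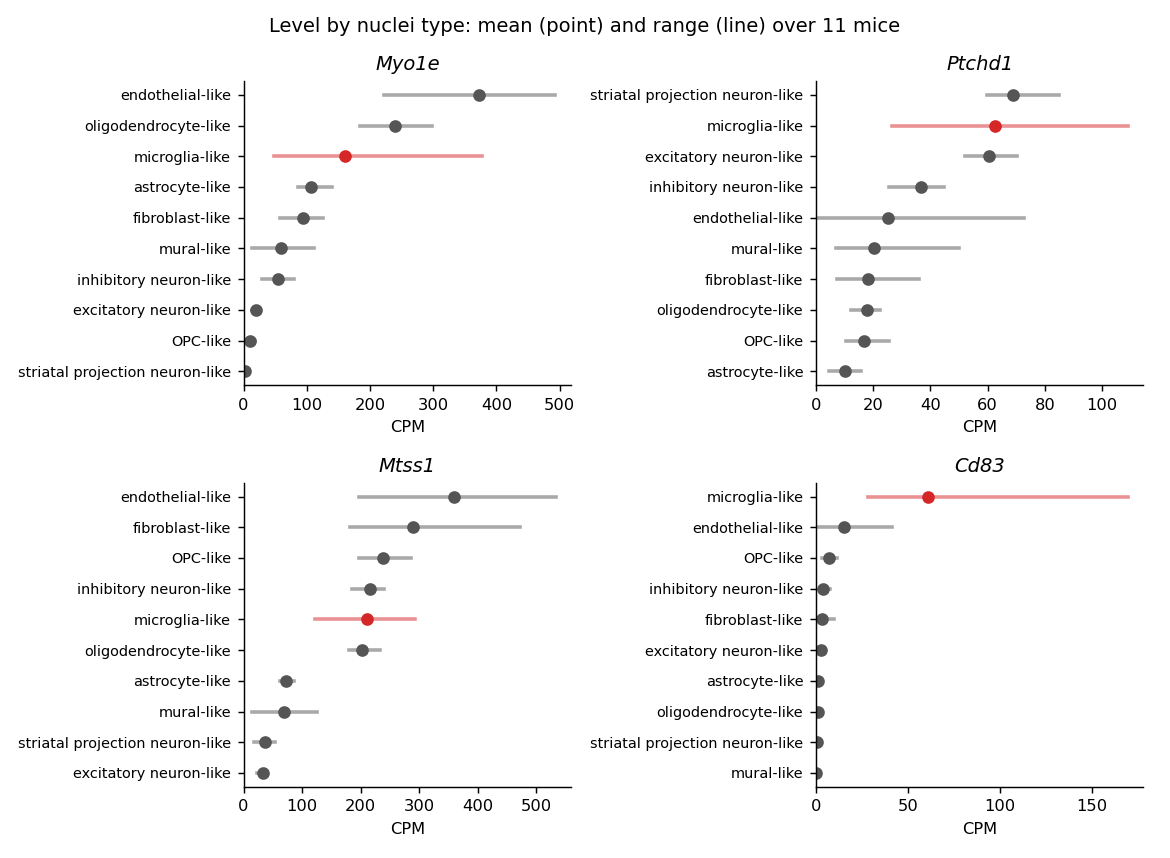
CPM of each gene (x axis) in 10 types of nuclei (y axis, ordered by mean), as the mean over 11 mice (point) and the lowest to highest mouse (line), with microglia-like nuclei in red. Cd83 has its highest mean in microglia-like nuclei (60.7 CPM), and Myo1e and Mtss1 have theirs in endothelial-like nuclei (373 and 360 CPM).

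The effect of the transgene on these genes was tested in 5 other types, whose nuclei did not enter the choice although their mice did. Cd83 did not pass the filter on low counts in astrocyte-like and oligodendrocyte-like nuclei, which left 18 tests. None (0 of 18) was called by edgeR or by DESeq2 for P301S against non-transgenic mice, and 2 had an unadjusted p under 0.05, with log2 differences between -0.61 and 0.71 and a lowest edgeR adjusted p of 0.956. Of all genes, 0.0332% were called in excitatory neuron-like, 0.00645% in inhibitory neuron-like, 0% in astrocyte-like (606 of 12123 at an unadjusted p under 0.05, and 1 called by DESeq2), 0.00771% in oligodendrocyte-like and 0.00988% in OPC-like nuclei.

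The 2 tests with an unadjusted p under 0.05 lay in inhibitory neuron-like nuclei. Myo1e, at 48.5 to 79.8 CPM in non-transgenic and 32.02 to 45.9 in P301S mice, had a log2 difference of -0.61 ± 0.27 (edgeR adjusted p = 0.956), opposite in sign to that in microglia-like nuclei. Ptchd1, at 25.6 to 37.2 and 37.7 to 44.7 CPM, had a difference of 0.33 ± 0.13 (edgeR adjusted p = 0.956). Neither held after adjustment. Inhibitory neuron-like nuclei pool clusters of 7090, 4958 and 1779 nuclei, and the part of their mix in these values was not tested. Within the active IKKβ group, Myo1e was at 73.8 and 29.1 CPM in this type. In oligodendrocyte-like nuclei, where Myo1e is high, its levels of 232 to 298 and 229 to 270 CPM overlapped, with a difference of -0.090 ± 0.092.

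Active IKKβ against knockout mice gave 0 of 18 called by edgeR or DESeq2 in these types as well (2 at an unadjusted p under 0.05, lowest edgeR adjusted p of 0.72), beside 0% of all genes in excitatory neuron-like (1048 at an unadjusted p under 0.05, 15 called by DESeq2), inhibitory neuron-like (649 and 1), astrocyte-like (553 and 3) and OPC-like nuclei (515 and 0) and 0.0309% in oligodendrocyte-like nuclei. Mtss1 in excitatory neuron-like nuclei was lower by a log2 difference of 0.47 (-0.47 ± 0.18, edgeR adjusted p = 0.802).

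Summed over the microglia-like nuclei of all mice, Myo1e was found together with Cd83 and with Ptchd1 more often than their separate shares in each mouse would give. At 1000 UMIs, 57 nuclei held both Myo1e and Cd83 where 37.0 would be expected (a ratio of 1.54, above 1 in 7 of 11 mice), and 43 held both Myo1e and Ptchd1 where 29.8 would (1.44, also 7 of 11). In each of the 3 P301S mice both pairs were above expectation, with pooled ratios of 1.68 and 1.47. Ptchd1 and Cd83 met in 17 nuclei against 15.5 (1.10).

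Mtss1 was with Cd83 in 27 nuclei where 38.5 would be expected (0.701, above 1 in 2 of 11 mice), with Ptchd1 in 30 against 35.3 and with Myo1e in 71 against 76.0. These counts are small and are a description with no test. Thinned to 500 UMIs, the ratios were 1.89 for Myo1e with Cd83 and 2.03 for Myo1e with Ptchd1, each above expectation in 5 of 11 mice. Mtss1 with Cd83 was at 0.744, but Ptchd1 with Cd83 (0.807) and Myo1e with Mtss1 (1.01) lay on the other side of 1. Of P301S nuclei, 4.27% held 2 of Myo1e, Ptchd1 and Cd83 and 0.389% held all 3 (5 of 1287), against 0.37% and 0% in non-transgenic mice (4 and 0 of 1080). These are pooled nuclei and no comparison over them is made; by counting error alone, a 0 here allows a share of up to 0.278%.

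Nuclei with a UMI of Myo1e, Ptchd1 or Cd83 also held more UMIs of the DAM list (22 genes of the disease-associated state). The mean over mice was 2.20 DAM UMIs in nuclei with Myo1e and 1.55 in those without (1.42 times, higher in 8 of 11 mice), 2.09 and 1.62 for Ptchd1 (1.29 times, 10 of 11) and 2.32 and 1.63 for Cd83 (1.42 times, 7 of 10). For Mtss1 the means were 1.62 and 1.64 (0.989 times, 4 of 11). The 20 homeostatic genes were at 0.93, 0.996, 0.904 and 1.003 times for Myo1e, Ptchd1, Cd83 and Mtss1. The 14 NF-κB targets were at 1.035, 0.961, 1.08 and 0.926 times. Thinned to 500 UMIs, the DAM list stayed above 1 for Myo1e, Ptchd1 and Cd83 (1.455, 1.43 and 1.47 times) and was at 0.936 times for Mtss1. The other lists moved more: for Ptchd1, homeostatic genes were at 0.857 times (higher in 0 of 8 mice) and NF-κB targets turned to 1.16 times, and for Myo1e NF-κB targets were at 1.22 times. The 7 oligodendrocyte markers were at 1.33 times in nuclei with Cd83 (0.413 against 0.311 UMIs, 7 of 10 mice) but at 0.904 times when thinned to 500 UMIs (4 of 10), and their part in the Cd83 values was not tested.

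**Figure D5:**
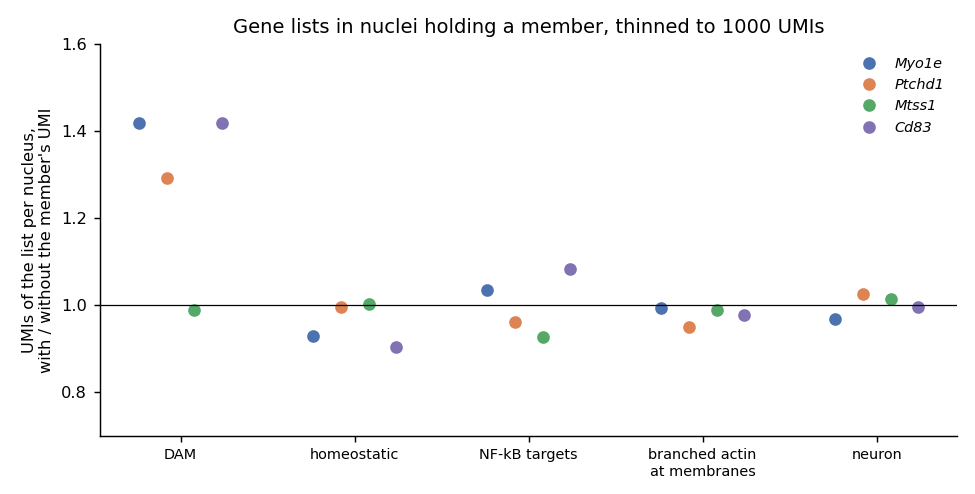
Mean UMIs of a gene list in microglia-like nuclei with a UMI of the named gene divided by the mean in nuclei without (y axis, from 0.7), all thinned to 1000 UMIs, for 5 lists (x axis) and 4 genes (colours). The DAM list lies at 1.42, 1.29 and 1.42 for Myo1e, Ptchd1 and Cd83 and at 0.989 for Mtss1, and the neuronal list lies between 0.969 and 1.03.

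Over the 11 mice, the log2 levels of the 4 genes were correlated. The Pearson correlation was 0.935 between Myo1e and Ptchd1, 0.825 between Myo1e and Cd83, 0.719 between Ptchd1 and Cd83, and -0.75 to -0.864 between Mtss1 and the others. The mice of each group share the genotype that chose the genes, so these are descriptions. Of the genes named next, Gas2l3, C030034L19Rik and Psmb9 were at low levels, with means of 17.8, 9.07 and 17.4 CPM. Their lowest mice were at 2.96, 2.20 and 8.79 CPM, so few UMIs carry these correlations there. The 3 genes most like each, among all 8974, were Ptchd1, Mitf (0.93; a lysosomal and melanocyte transcription factor) and Gas2l3 (0.916) for Myo1e, Myo1e, C030034L19Rik (0.92) and Psmb9 (0.91; an immunoproteasome subunit) for Ptchd1, Bcl9l (0.939), Irgm2 (0.937; an interferon-induced GTPase) and Ecscr (0.933) for Mtss1, and Gm37168 (0.922), Usp12 (0.921; a deubiquitinase) and Pfkfb3 (0.919; a glycolytic regulator) for Cd83.

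Relatives of the 4 genes were taken from 6 lists. Of their 53 entries tested (Ptch1 stands in 2 lists) for P301S in microglia-like nuclei, 5 had an unadjusted p under 0.05, and edgeR and DESeq2 called 0. Over all 8974 genes tested, 695 had such a p and edgeR called 0.078%. Of the class I myosins, 5 of 7 were tested and 0 were called (median log2 difference 0.080, against -0.014 over all genes). Among 7 of 11 patched and sterol-sensing domain proteins, 2 of 4 further I-BAR proteins, 25 of 25 branched-actin genes and 4 of 12 hedgehog genes, 0 were called. The medians of these lists were -0.18, 0.29, 0.054 and -0.21.

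Among genes of antigen presentation and costimulation, 10 of 12 were tested and 0 were called for P301S (median 0.31). For the knockout against P301S mice, edgeR and DESeq2 called 0 of the 53 (8 at an unadjusted p under 0.05), where edgeR called 0% of 8974 genes (737 at an unadjusted p under 0.05, and 0 with DESeq2).

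In active IKKβ mice, 5 of the 53 passed edgeR's test against knockouts, and DESeq2 called 2 of 53, beside 1.94% of all genes with edgeR. Against knockouts, edgeR called Cd80, a CD28 ligand (1.45 ± 0.30, edgeR adjusted p = 0.00922), Cd274, which encodes PD-L1 (1.24 ± 0.32, adjusted p = 0.042), and Icosl, the ICOS ligand (1.15 ± 0.28, adjusted p = 0.0288), all higher. Cd80 was at a mean of 48.1 CPM in knockout and 120 CPM in active IKKβ mice. Of the class I myosins, Myo1d was lower (65.5 CPM in knockout and 27.9 CPM in active IKKβ mice, -1.19 ± 0.30, edgeR adjusted p = 0.0343). Against P301S mice, where 1.66% of all genes were called, Cd80 (1.32 ± 0.26) and Myo1d (-1.17 ± 0.27) were called in the same directions. Whether these genes and the 4 members differ in their response was not tested.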

How the data were processed

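Single nuclei of 11 mice were profiled with the 10x 3′ kit. The authors aligned reads to mm10 with Cell Ranger 3.1.0, counting unspliced transcripts, and deposited raw UMI counts per gene and called barcode. Of 114118 barcodes, 112539 passed the study's limits on genes (300 to 8000) and on mitochondrial share (5% or less), 9474 predicted doublets were removed at 0.8% per 1000 barcodes, and 103065 nuclei were clustered (2000 genes, 15 components, Leiden resolution 0.1) and named from markers. The study's DoubletFinder and MAST were not run. Counts were summed per mouse and type and tested with edgeR 4.0.16 in R 4.3.3 (TMM, filterByExpr, quasi-likelihood, 1 term per group, all 11 mice); DESeq2 1.42.0 was an alternative. The biological coefficient of variation was 13.3% in microglia-like nuclei. The test was tried on simulated counts. The fits' SE applies to the log2 difference.

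The members and gene lists were chosen with earlier results of these data known. Genes named are the members, list genes called in a microglia-like contrast (at most 4 a list) and the 3 genes most correlated with each member. Some genes that meet this rule are not reported here. Samples were separate mice, and p-values measure the spread between these mice. Alternatives were other normalisation, tool, filter, covariates, samples, doublets, thinning and gate.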

Additional observations from a re-analysis of the deposited data

Results flagged for a closer look

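In 2 of 30 sets of 4 non-transgenic values, 1 mouse lay further from the other 3 than Dixon's 95% limit allows, and chance alone gives about 5% of such sets. In non-transgenic replicate 2, Mtss1 had a level of 27.2 CPM among excitatory neurons, where the highest of these mice had 38.3 CPM. In non-transgenic replicate 1, Cd83 had a level of 3.8 CPM among inhibitory neurons, where the lowest had 2.45 CPM.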

How the results depend on the processing

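All alternatives kept the sign of the 4 genes for P301S in microglia-like nuclei, with log2 differences of 1.45 to 2.10 for Myo1e, 1.24 to 1.67 for Ptchd1, -0.94 to -0.60 for Mtss1 and 0.72 to 1.80 for Cd83. These mice chose the genes by this contrast, so nothing is read from the kept signs. The count of genes called for P301S ran from 0 (without P301S replicate 3) to 29 (without P301S replicate 1) when 1 mouse was left out, and was 123 with no filter on low counts, 35 with breeding line as a covariate, 4 with DESeq2 and 1 with doublets kept. For active IKKβ minus knockout, 395 genes were called with no filter, 37 with line as a covariate, 26 with age as a covariate, 100 with doublets kept and 112 without nuclei holding macrophage, lymphocyte or dendritic markers. Leaving out 1 mouse gave 80 (without knockout replicate 2) to 292 (without P301S replicate 3), and 93 without knockout replicate 1. The cause of these changes was not tested.

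In the same contrast the sign turned for Cd83 with DESeq2 (0.0033), with the replicate block (0.018) and after thinning (0.037), and for Ptchd1 with line (0.089) and with doublets kept (0.097). With line as a covariate Cd83 was at -1.18 and with age at -0.85, neither called. With 1 mouse left out, Myo1e ran from -0.58 to 0.89, Ptchd1 from -0.41 to 0.65 and Cd83 from -0.43 to 0.82, the highest of each without knockout replicate 1 and the lowest without knockout replicate 2, and Mtss1 from -0.88 to -0.26, with these mice in the opposite order. The replicate block, the number in the titles, called 3 genes for P301S, with Myo1e at 1.81 and Ptchd1 at 1.38. Residuals of mice with the same number were correlated by -0.081 to 0.137. In a group of 2 mice the residuals mirror each other, so this cannot decide whether the numbers pair the mice. Non-transgenic replicate 3 and active IKKβ replicate 1 shared a number and an age (10.85 months). The same held for non-transgenic replicate 4 and active IKKβ replicate 2 (9.8 months).

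In other types, where no member was called, some values changed sign, and not all of them were near 0. In the main fit, active IKKβ minus knockout was at -0.55 for Ptchd1 in OPC-like and -0.25 for Myo1e in inhibitory neuron-like nuclei. Cd83 was at 0.25 in excitatory neuron-like nuclei. With line as a covariate, active IKKβ minus knockout gave -0.19 for Myo1e and 0.14 for Ptchd1 in excitatory neuron-like, 0.083 for Ptchd1 in inhibitory neuron-like, -0.38 for Ptchd1 in astrocyte-like and 0.34 for Myo1e in OPC-like nuclei, and P301S gave 0.010 for Myo1e in astrocyte-like nuclei. With the replicate block, P301S gave -0.0014 for Ptchd1 and -0.015 for Mtss1 in astrocyte-like nuclei. With doublets kept, P301S gave -0.099 for Ptchd1 in astrocyte-like, 0.15 for Ptchd1 in oligodendrocyte-like and -0.0049 for Myo1e in OPC-like nuclei, and active IKKβ minus knockout gave 0.50 for Myo1e in OPC-like nuclei. With 1 mouse left out, P301S ran from -0.20 to 0.051 for Mtss1 in excitatory neuron-like nuclei, from -0.11 to 0.14 for Myo1e, -0.17 to 0.38 for Ptchd1 and -0.043 to 0.079 for Mtss1 in astrocyte-like nuclei, from -0.23 to 0.16 for Ptchd1 and -0.026 to 0.13 for Mtss1 in oligodendrocyte-like nuclei, and from -0.28 to 0.45 for Myo1e in OPC-like nuclei. Active IKKβ minus knockout ran from -0.0097 to 0.086 for Myo1e, -0.13 to 0.052 for Ptchd1 and -0.11 to 0.55 for Cd83 in excitatory neuron-like nuclei, from -1.04 to 0.30 for Myo1e and -0.38 to -0.028 for Ptchd1 in inhibitory neuron-like nuclei, from -0.19 to 0.29 for Ptchd1 and -0.25 to 0.22 for Mtss1 in astrocyte-like nuclei, from -0.47 to 0.032 for Ptchd1 in oligodendrocyte-like nuclei, and from -1.12 to 0.46 for Myo1e and -0.88 to 0.14 for Ptchd1 in OPC-like nuclei. Shares of positive nuclei at other depths moved in 26 of 32 values by over 1 SD. A share depends on depth by construction, so this does not bear on the comparison of groups. Depth limits the precision: 627 Ptchd1 and 683 Cd83 UMIs in all microglia-like nuclei.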
